A study of Mus musculus with 7 samples.

Results

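Fibroblast growth factor (FGF) signalling genes were followed through 7 RNA sequencing libraries of mouse neural crest-derived cells and their neighbours, before and after culture as neurospheres. The set held 39 genes of the 27179 in the count table. They were chosen by symbol alone, as all Fgf genes, the receptors Fgfr1 to Fgfr4 and Fgfrl1, and the feedback genes of the Spry, Spred, Dusp4 to Dusp6 and Etv4 to Etv5 families. By role they were 18 secreted ligands, 4 intracellular FGF genes, 5 receptors, 7 Sprouty and Spred inhibitors, 3 Dusp phosphatases and 2 Etv transcription factors.

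FGF ligands bind receptor tyrosine kinases together with heparan sulfate, and the activated receptor works largely through Ras and the kinase ERK. ERK signalling induces the ETS transcription factors Etv4 and Etv5 and a set of its own inhibitors: Sprouty and Spred proteins act upstream of ERK, and Dusp phosphatases remove its activating phosphates. The transcripts of these feedback genes are widely used as a readout of FGF and other receptor tyrosine kinase signalling, and basic FGF (the Fgf2 protein) with epidermal growth factor (EGF) is the usual pair of mitogens in neurosphere medium.

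Cells came from Wnt1-tdT mice (Wnt1-Cre crossed with the R26R-tdT reporter), in which the Wnt1 promoter drives Cre, and Cre turns on tdTomato, a red fluorescent protein, in the neural crest lineage. The label marks descent from the crest and not a present cell type, and it rests on where Wnt1-Cre was active. All 7 groups carried both alleles, and each was 1 library from about 50000 cells pooled from 3 mice aged 1 month, 2 female and 1 male. Adipose neurospheres were grown from subcutaneous fat pads as mixed spheroids for 10 days, sorted for tdTomato and grown for 10 days more, and bowel M2 neurospheres were grown in the same 2 stages from the small bowel muscle layer. Bowel M1 neurospheres were sorted first and then grown for 10 days. The tdTomato-positive (crest-derived) and tdTomato-negative (not crest-derived) cells of mixed bowel spheroids were taken after 10 days, while adipose primary and bowel primary cells were sorted tdTomato-positive cells that were never cultured. The medium held basic FGF and EGF at 20 ng/mL each with heparin at 0.0002%, so all 5 cultured groups received both factors and no group was cultured without them. The factor, the culture and the time outside the animal therefore cannot be told apart in any comparison of cultured with fresh cells.

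The libraries held 51885106 to 65301500 reads assigned to genes, and values are given as CPM, which scales the reads of each gene to a common library total. The floor used where a gene had 0 reads, 3 reads, is 0.0459 to 0.0578 CPM. Sox10, a defining gene of crest and glial cells, stood at 98.0 to 899.6 CPM in the 6 crest-derived libraries and at 5.23 CPM in the tdTomato-negative one, and the summed level of 8 crest and glial markers was 991 to 4657 CPM against 24.4 CPM. Bowel primary cells also held transcripts of other cells, since 8 pancreatic acinar markers summed to 21.2 to 242 CPM in the other 6 libraries and 49075 CPM in bowel primary cells, and 8 smooth muscle markers to 69.9 to 480 CPM elsewhere and 25389 CPM there. Adipose primary cells held the most lymphocyte and dendritic transcripts (8 markers, 2060 CPM against 25.5 to 206 CPM elsewhere). All 8 reached 1 CPM there, against 1 in each neurosphere library and 2 in tdTomato-positive spheroid cells. In tdTomato-negative spheroid cells and in bowel primary cells 6 did. In such bulk RNA, fewer cells of a type and less RNA per cell cannot be told apart.

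With 1 library per group no difference has a replicate check and no test was possible. A gene counted as measured in a comparison if at least 1 of its 2 libraries held 1 CPM or more. It was called higher or lower where its scaled reads differed by at least 4-fold and the whole 95% counting interval lay past 2-fold. Log2 ratios come from reads scaled by TMM and therefore differ from the ratio of the CPM printed beside them, over all genes by a median of 0.459 log2 units in bowel M1 neurospheres over bowel primary cells and by 0.0191 to 0.285 in the other 8 comparisons. The sign differs between the CPM and the log2 ratio in 4 of 219 measured ratios of members, none of them called: Fgfr1 in fat, Spry1 in bowel M1 and Spred2 in bowel M2 neurospheres over their primary cells, and Dusp6 in M2 over M1 neurospheres. The intervals cover counting error only, since without molecular identifiers PCR copies cannot be told from separate molecules. Levels of different genes are set side by side only as CPM per kb of merged exons.

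Of the 39 genes, 29 reached 1 CPM in at least 1 library: 10 of 18 secreted ligands, 3 of 4 intracellular FGF genes, all 5 receptors, 6 of 7 Sprouty and Spred genes, all 3 Dusp genes and both Etv genes. The 10 that did not were Fgf4, Fgf6, Fgf8, Fgf11, Fgf15, Fgf17, Fgf20, Fgf21, Fgf22 and Spry3. Fgf6 and Spry3 had 0 reads in all 7 libraries, and the other 8 peaked between 0.0649 CPM (Fgf8, 4 reads in adipose neurospheres) and 0.704 CPM (Fgf11 in bowel M2 neurospheres). Within any 1 library 3 to 6 of the 18 secreted ligands, 2 to 5 of the 5 receptors and all 3 Dusp genes reached 1 CPM.

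**Figure D1:**
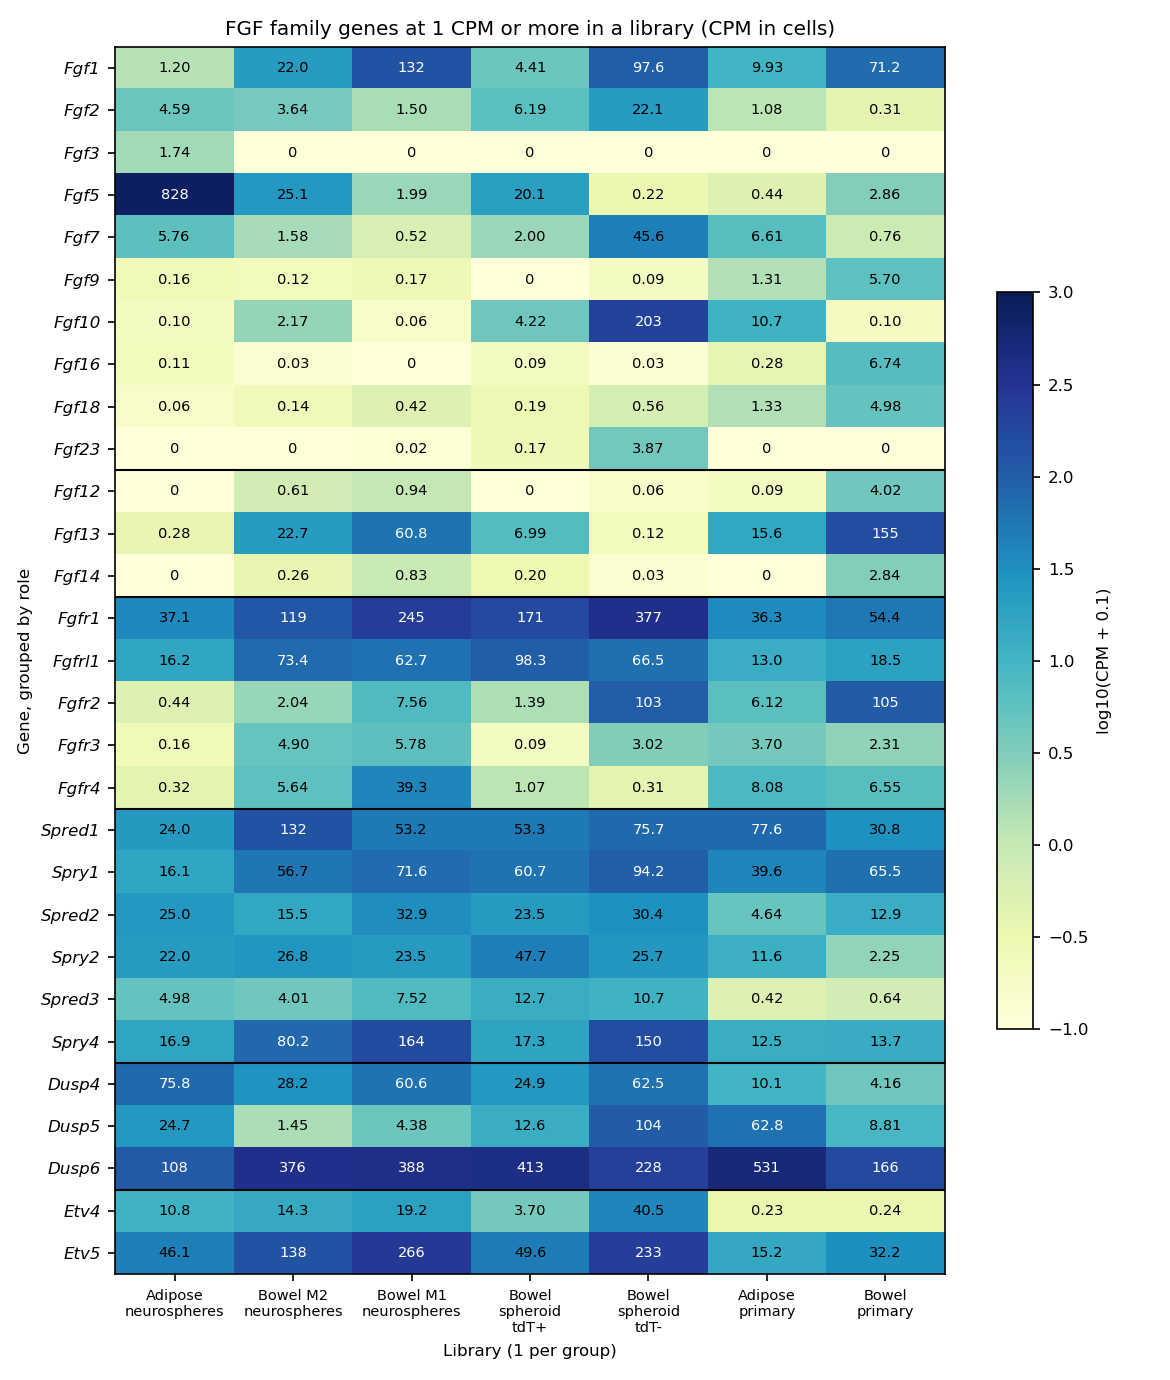
CPM of the 29 genes that reached 1 CPM in a library (rows, grouped by role between the black lines), with colour on a log10(CPM + 0.1) scale and the CPM printed in each cell, for 7 libraries (columns). Fgf5 reaches 828 CPM in adipose neurospheres, Fgf10 reaches 203 CPM in tdTomato-negative spheroid cells, and Dusp6 is above 100 CPM in all 7 libraries.

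The ligand that stood highest per length differed between libraries. It was Fgf5 in adipose neurospheres (331 CPM per kb), bowel M2 neurospheres (10.0 CPM per kb) and tdTomato-positive spheroid cells (8.05 CPM per kb). It was Fgf1 in bowel M1 neurospheres (24.2 CPM per kb) and in bowel primary cells (13.0 CPM per kb), and Fgf10 in tdTomato-negative spheroid cells (44.2 CPM per kb) and in adipose primary cells (2.34 CPM per kb).

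Fgf5, a secreted ligand known in the mouse for ending the growth phase of the hair cycle, was the member with the largest difference. It stood at 828 CPM (51001 reads) in adipose neurospheres, 25.1 CPM in bowel M2 neurospheres, 1.99 CPM in bowel M1 neurospheres, 20.1 CPM in tdTomato-positive and 0.216 CPM in tdTomato-negative spheroid cells, 0.437 CPM (28 reads) in adipose primary cells and 2.86 CPM in bowel primary cells. All 3 libraries above 20 CPM were crest-derived cells that had spent 10 days in mixed spheroids, and the bowel library grown only after sorting was below fresh bowel cells. Adipose neurospheres were 10.65 log2 units above adipose primary cells (counting interval 10.21 to 11.33), which ranked Fgf5 as the 8th highest log2 ratio of the 14773 genes measured there. They were 5.16 log2 units above bowel M2 neurospheres (5.09 to 5.24), the 108th highest of 13440. Against bowel primary cells, which these 3 comparisons share, the log2 ratio of Fgf5 was 2.83 in bowel M2 neurospheres and 2.63 in tdTomato-positive spheroid cells, both called higher, and -0.97 in bowel M1 neurospheres, which was not called.

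Fgf5 lies on chromosome 5 at 98254184 to 98277033 (mouse build GRCm38). Its promoter is shown because it belongs to the member with the largest change. The window, from RefSeq on GRCm38.p6, covers 250 bases before to 50 bases after the annotated start on the plus strand (chr5:98253934-98254233), and it holds none of the 3 motifs searched for, which are given with the feedback genes.
Fgf5: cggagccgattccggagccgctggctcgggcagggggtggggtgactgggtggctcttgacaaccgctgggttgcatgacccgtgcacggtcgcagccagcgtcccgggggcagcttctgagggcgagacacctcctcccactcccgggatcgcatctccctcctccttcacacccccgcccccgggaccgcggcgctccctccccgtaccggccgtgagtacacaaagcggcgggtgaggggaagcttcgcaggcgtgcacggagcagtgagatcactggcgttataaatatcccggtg

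Fgf3, a ligand of the same subfamily as Fgf7 and Fgf10 that is known for inner ear development, was read only in adipose neurospheres, at 1.74 CPM (107 reads) against 0 reads in each of the other 6 libraries. It was at least 33.5-fold higher than in adipose primary cells and at least 41.1-fold higher than in bowel M2 neurospheres, taking 3 reads as the floor of the library with 0. Its neighbour Fgf4, which lies 18.04 kb away on chromosome 7, had 1 read in adipose neurospheres.

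Fgf10 and Fgf7 are ligands that mesenchymal cells secrete and that act mainly on the epithelial form of Fgfr2. Fgf10 (chromosome 13, 118714699 to 118792573) stood at 0.0974 CPM (6 reads) in adipose neurospheres, 2.17 CPM in bowel M2 neurospheres, 0.0578 CPM (3 reads) in bowel M1 neurospheres, 4.22 CPM in tdTomato-positive and 203 CPM in tdTomato-negative spheroid cells, 10.7 CPM in adipose primary cells and 0.104 CPM (6 reads) in bowel primary cells. It was therefore highest in the cells that were not crest-derived and, among crest-derived cells, in fresh adipose cells. The 2-stage neurospheres of the 2 tissues differed from fresh cells in opposite directions: adipose neurospheres were below adipose primary cells (log2 ratio -6.52, counting interval -8.38 to -5.80), and bowel M2 neurospheres were 3.77 log2 units above bowel primary cells (2.94 to 5.57). Bowel M1 neurospheres did not share the rise, with 3 reads against 6 in bowel primary cells. The difference between the tissues was not tested. Fgf7 stood at 5.76 CPM in adipose neurospheres, 1.58 CPM in bowel M2 neurospheres, 0.520 CPM in bowel M1 neurospheres, 2.00 CPM in tdTomato-positive and 45.6 CPM in tdTomato-negative spheroid cells, 6.61 CPM in adipose primary cells and 0.763 CPM in bowel primary cells. Unlike Fgf10, Fgf7 differed little between adipose neurospheres and adipose primary cells (log2 ratio -0.34, counting interval -0.55 to -0.14).

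The 8 fibroblast and matrix markers, which describe cells that commonly make these ligands, summed to 4808 CPM in tdTomato-positive and 46593 CPM in tdTomato-negative spheroid cells. Their sum was 1556 CPM in adipose neurospheres against 12057 CPM in adipose primary cells, and 751 CPM in bowel M2 neurospheres against 5298 CPM in bowel primary cells. The markers thus moved with Fgf10 in the sort and in fat and against it in bowel M2 neurospheres. In bowel M1 neurospheres their sum was 1892 CPM, and Fgf10 was below 1 CPM both there and in bowel primary cells. In tdTomato-positive spheroid cells the sum was near that of bowel primary cells, but 5 of the 8 markers were called lower and 1 higher. The median log2 ratio of the 8 was -3.49, whereas Fgf10 was 4.82 log2 units higher. The part of the markers in these differences was not tested.

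Fgf2, whose protein was added to the medium, stood at 4.59 CPM in adipose neurospheres, 3.64 CPM in bowel M2 neurospheres, 1.5 CPM in bowel M1 neurospheres, 6.19 CPM in tdTomato-positive and 22.1 CPM in tdTomato-negative spheroid cells, 1.08 CPM in adipose primary cells and 0.312 CPM (18 reads) in bowel primary cells. All 5 cultured libraries were above both fresh ones, and the difference was called in 2 of the 4 comparisons of cultured with fresh crest cells, at log2 ratios of 4.02 in tdTomato-positive spheroid cells and 3.14 in bowel M2 neurospheres over bowel primary cells. The added protein itself leaves no reads. Fgf2 shares 640 bp, 9.44% of its merged exons, with Nudt6 on the opposite strand. No source used here states whether strand was used in counting, so reads of the 2 genes cannot be told apart in that stretch. Nudt6 was highest in tdTomato-negative spheroid cells too, at 43.6 CPM, with 19.6 CPM in tdTomato-positive spheroid cells and 17.2 CPM in adipose neurospheres. It stood at 14.4 CPM in bowel M2 neurospheres, 9.87 CPM in M1 neurospheres and 10.0 and 10.4 CPM in adipose and bowel primary cells. The part of Nudt6 reads in the Fgf2 levels was not tested.

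Fgf1, acidic FGF, which binds all 4 kinase receptors, stood at 1.2 CPM in adipose neurospheres, 22.0 CPM in bowel M2 neurospheres, 132 CPM in bowel M1 neurospheres, 4.41 CPM in tdTomato-positive and 97.6 CPM in tdTomato-negative spheroid cells, 9.93 CPM in adipose primary cells and 71.2 CPM in bowel primary cells. Its order over the crest-derived bowel libraries was nearly the reverse of that of Fgf5, with bowel M1 neurospheres and bowel primary cells highest. It was called lower in adipose neurospheres than in adipose primary cells (log2 ratio -3.16) and in tdTomato-positive spheroid cells than in bowel primary cells (-4.18). In bowel M1 neurospheres over bowel primary cells the log2 ratio was 0.43 (counting interval 0.38 to 0.49; 1.35-fold after scaling), and in bowel M2 neurospheres it was -1.98, just inside the 4-fold limit.

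**Figure D2:**
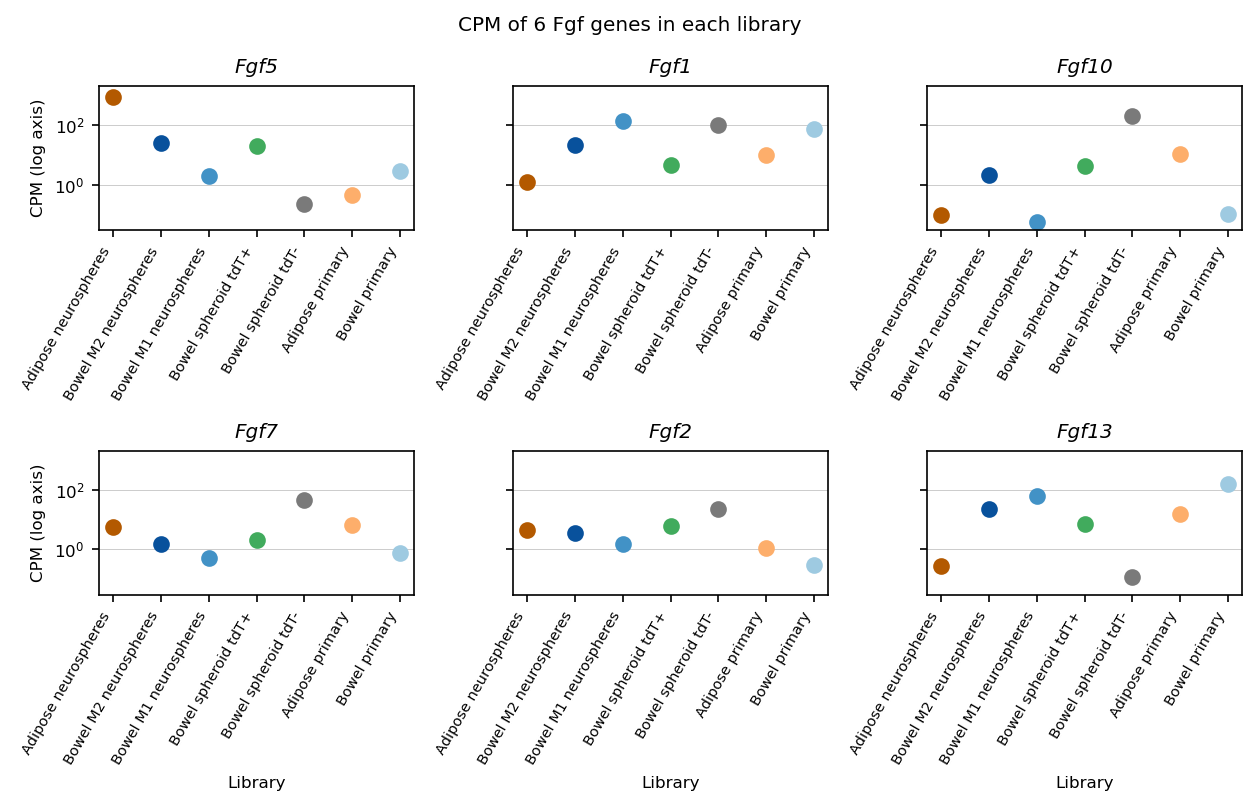
CPM on a log axis (vertical) of 6 Fgf genes in each of the 7 libraries (horizontal), 1 point per library. Fgf5 stands at 828, 25.1 and 20.1 CPM in the 3 crest-derived libraries that passed through mixed spheroids, whereas Fgf10, Fgf7 and Fgf2 are highest in tdTomato-negative spheroid cells at 203, 45.6 and 22.1 CPM.

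Fgf9, Fgf16 and Fgf18 were highest in bowel primary cells. Fgf9, known in the developing lung and gut as a signal of epithelium and mesothelium to mesenchyme, did not exceed 0.173 CPM in any cultured library, against 1.31 CPM in adipose primary cells and 5.70 CPM in bowel primary cells. Fgf16, of the same subfamily, did not exceed 0.281 CPM in the other 6 libraries, against 6.74 CPM in bowel primary cells. Fgf18 did not exceed 0.557 CPM in culture, against 1.33 CPM in adipose primary cells and 4.98 CPM in bowel primary cells. Every cultured library was thus below both fresh ones for all 3 genes. Bowel M1 neurospheres had 0 reads of Fgf16 and were at least 160-fold lower than bowel primary cells, and tdTomato-positive spheroid cells had 0 reads of Fgf9 and were at least 139-fold lower. In bowel M2 neurospheres over bowel primary cells the log2 ratios were -6.96 for Fgf16 (2 reads, counting interval -11.12 to -6.21), -5.46 for Fgf9 and -5.14 for Fgf18. The 6 mesothelial markers summed to 0.291 CPM in bowel M2 neurospheres, 78.7 CPM in bowel M1 neurospheres and 0.789 CPM in tdTomato-positive spheroid cells, against 1481 CPM in bowel primary cells, and the acinar and smooth muscle sums moved the same way. Their part in these differences was not tested.

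Fgf23, a hormone of phosphate balance made mainly in bone, stood at 0.170 CPM (11 reads) in tdTomato-positive and 3.87 CPM (250 reads) in tdTomato-negative spheroid cells. It had 1 read in bowel M1 neurospheres and 0 reads in the other 4 libraries.

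The intracellular FGF genes encode proteins that are not secreted and that bind voltage-gated sodium channels in neurons. Fgf13 stood at 0.276 CPM (17 reads) in adipose neurospheres, 22.7 CPM in bowel M2 neurospheres, 60.8 CPM in bowel M1 neurospheres, 6.99 CPM in tdTomato-positive and 0.124 CPM (8 reads) in tdTomato-negative spheroid cells, 15.6 CPM in adipose primary cells and 155 CPM in bowel primary cells. It was the highest of these genes per length in 6 of the 7 libraries, tdTomato-negative spheroid cells being the exception. Fgf12 and Fgf14 reached 1 CPM only in bowel primary cells, at 4.02 and 2.84 CPM. All 3 genes were called lower in bowel M2 neurospheres and in tdTomato-positive spheroid cells than in bowel primary cells, with log2 ratios of -3.05 and -4.63 for Fgf13. In bowel M1 neurospheres Fgf12 (-2.50) and Fgf14 (-2.18) were called lower and Fgf13 (-1.81) was not, and the call of Fgf14 was lost under scaling by total reads (-1.74). Adipose neurospheres were below adipose primary cells in Fgf13 (log2 ratio -5.80, counting interval -6.75 to -5.28).

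The 8 neuronal markers did not fall with Fgf13 in fat. They summed to 721 CPM in adipose neurospheres against 60.4 CPM in adipose primary cells, but Uchl1 and Tubb3 made up 711 CPM of that sum against 53.4 CPM in adipose primary cells. The other 6 summed to 10.0 CPM in adipose neurospheres against 6.98 CPM in adipose primary cells, and Snap25, a synaptic protein gene, had 0 reads in the neurospheres. Uchl1 and Tubb3 were split off after their values were seen. The 8 neuronal markers summed to 1113 CPM in bowel M2 neurospheres, 1395 CPM in M1 neurospheres and 725 CPM in tdTomato-positive spheroid cells. Their sum was 1534 CPM in bowel primary cells, and the order of these sums is that of Fgf13 in the same libraries. Their part in the Fgf13 differences was not tested.

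Receptor transcripts were dominated by Fgfr1 and Fgfrl1 in every crest-derived library except bowel primary cells. Fgfrl1, a receptor that binds FGF but has no kinase domain, led per length in adipose neurospheres (5.81 CPM per kb, against 3.76 CPM per kb of Fgfr1), bowel M2 neurospheres (26.4 against 12.0), tdTomato-positive spheroid cells (35.4 against 17.3) and adipose primary cells (4.67 against 3.67). Fgfr1 led in bowel M1 neurospheres (24.8 CPM per kb) and in tdTomato-negative spheroid cells (38.2 CPM per kb). In bowel primary cells Fgfr2 led with 10.1 CPM per kb, ahead of Fgfrl1 with 6.66 and Fgfr1 with 5.51.

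Fgfr2 (chromosome 7, 130162451 to 130266808), the receptor of Fgf7 and Fgf10 in epithelia, stood at 0.438 CPM (27 reads) in adipose neurospheres, 2.04 CPM in bowel M2 neurospheres, 7.56 CPM in bowel M1 neurospheres, 1.39 CPM in tdTomato-positive and 103 CPM in tdTomato-negative spheroid cells, 6.12 CPM in adipose primary cells and 105 CPM in bowel primary cells. It was the only receptor called lower in all 4 comparisons of cultured with fresh crest cells. The log2 ratios were -3.85 in adipose neurospheres over adipose primary cells and, over the shared bowel primary library, -5.94 in M2 neurospheres, -4.24 in M1 neurospheres and -6.37 in tdTomato-positive spheroid cells. In each of these comparisons 16.4% to 21% of all genes measured were called lower. The share of all genes called lower in all 4 is not given here. The table gives counts per gene, so the epithelial and mesenchymal splice forms of Fgfr2 were not distinguished. The 6 epithelial markers summed to 0.325 CPM in adipose neurospheres, 0.613 CPM in bowel M2 neurospheres, 22.8 CPM in bowel M1 neurospheres, 1.08 CPM in tdTomato-positive and 24.2 CPM in tdTomato-negative spheroid cells, 61.4 CPM in adipose primary cells and 130 CPM in bowel primary cells. The epithelial sum did not follow Fgfr2 throughout, being nearly equal in bowel M1 neurospheres and tdTomato-negative spheroid cells. The 8 smooth muscle markers summed to 25389 CPM in bowel primary cells and to 69.9 to 480 CPM in the other libraries. The part of either marker list in the Fgfr2 differences was not tested.

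Fgfr1 was not called in any of the 4 comparisons of cultured with fresh crest cells. It stood at 37.1 CPM in adipose neurospheres against 36.3 CPM in adipose primary cells, and at 119 CPM in M2 neurospheres, 245 CPM in M1 neurospheres and 171 CPM in tdTomato-positive spheroid cells against 54.4 CPM in bowel primary cells. All 3 cultured bowel libraries were thus above fresh bowel cells, by 0.84, 1.71 and 1.48 log2 units in that order, while the adipose pair differed by -0.11 (counting interval -0.20 to -0.03). Fgfrl1 stood at 16.2 CPM in adipose neurospheres against 13.0 CPM in adipose primary cells, and at 73.4, 62.7 and 98.3 CPM in bowel M2, M1 and tdTomato-positive spheroid cells against 18.5 CPM in bowel primary cells. Of these, tdTomato-positive spheroid cells were called higher (log2 ratio 2.23).

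Fgfr4 and Fgfr3 were lower and varied more. Fgfr4 stood at 0.325 CPM in adipose neurospheres, 5.64 CPM in bowel M2 neurospheres, 39.3 CPM in bowel M1 neurospheres, 1.07 CPM in tdTomato-positive and 0.309 CPM in tdTomato-negative spheroid cells, 8.08 CPM in adipose primary cells and 6.55 CPM in bowel primary cells. It was the only receptor called higher in bowel M1 neurospheres over bowel primary cells (log2 ratio 2.12) and was called lower in adipose neurospheres over adipose primary cells (-4.65). Fgfr3 stood at 0.162 CPM (10 reads) in adipose neurospheres against 3.70 CPM in adipose primary cells, a log2 ratio of -4.40. It stood at 4.90 and 5.78 CPM in bowel M2 and M1 neurospheres and at 0.0929 CPM (6 reads) in tdTomato-positive spheroid cells, against 2.31 CPM in bowel primary cells. Up to 13.9% of the merged exons of Fgfr3 overlap the opposite-strand gene G630022F23Rik, so part of its reads is uncertain.

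**Figure D3:**
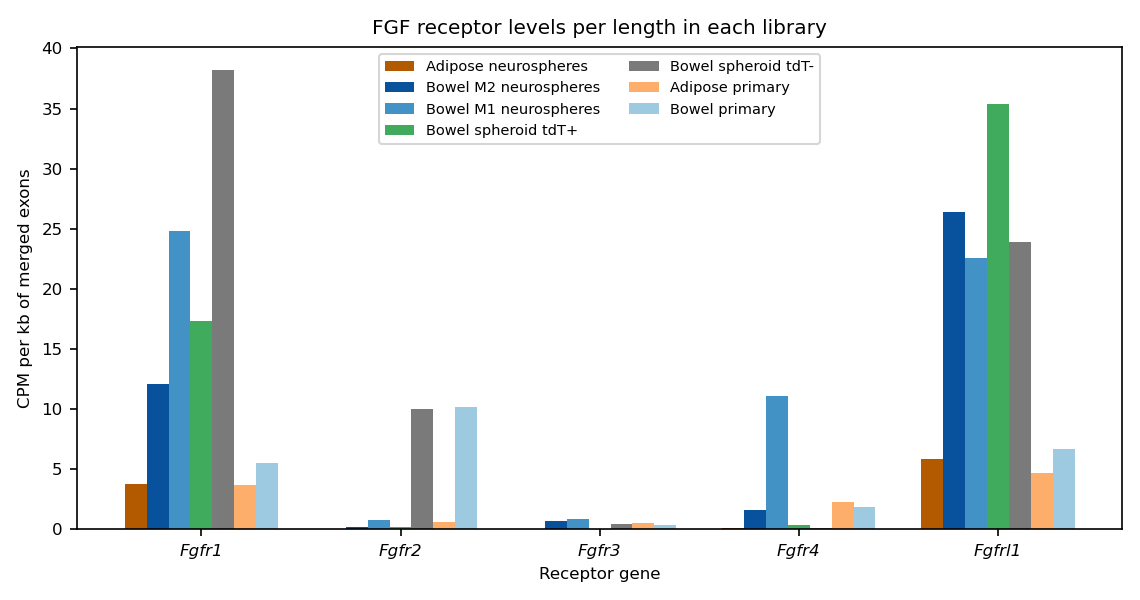
CPM per kb of merged exons (vertical) of the 5 receptor genes (horizontal), 1 bar per library in each group of bars. Fgfr1 and Fgfrl1 carry the highest bars, and Fgfr2 reaches about 10 CPM per kb in tdTomato-negative spheroid cells (9.99) and bowel primary cells (10.1) only.

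Among the feedback genes, Etv4, Dusp4 and Spred3 were called higher in all 4 comparisons of cultured with fresh crest cells. In each of these comparisons 5.72% to 6.59% of all genes measured were called higher. The share of all genes called higher in all 4 is not given here. Etv4 (chromosome 11, 101769747 to 101785310) stood at 10.8 CPM in adipose neurospheres, 14.3 CPM in bowel M2 neurospheres, 19.2 CPM in bowel M1 neurospheres, 3.70 CPM in tdTomato-positive and 40.5 CPM in tdTomato-negative spheroid cells, 0.234 CPM (15 reads) in adipose primary cells and 0.243 CPM (14 reads) in bowel primary cells. All 5 cultured libraries were above both fresh ones, which were nearly equal. The log2 ratios were 5.21 in adipose neurospheres over adipose primary cells (counting interval 4.65 to 6.23) and, over the shared bowel primary library, 5.44 in M2 neurospheres, 5.69 in M1 neurospheres and 3.6 in tdTomato-positive spheroid cells.

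Dusp4, a nuclear phosphatase of ERK, stood at 75.8 CPM in adipose neurospheres, 28.2 CPM in bowel M2 neurospheres, 60.6 CPM in bowel M1 neurospheres, 24.9 CPM in tdTomato-positive and 62.5 CPM in tdTomato-negative spheroid cells, 10.1 CPM in adipose primary cells and 4.16 CPM in bowel primary cells. Its log2 ratios were 2.76 in fat and 2.47, 3.40 and 2.40 in bowel M2 neurospheres, M1 neurospheres and tdTomato-positive spheroid cells. Spred3, a Ras pathway inhibitor, stood at 4.98 CPM in adipose neurospheres, 4.01 CPM in bowel M2 neurospheres, 7.52 CPM in bowel M1 neurospheres, 12.7 CPM in tdTomato-positive and 10.7 CPM in tdTomato-negative spheroid cells, 0.422 CPM in adipose primary cells and 0.641 CPM in bowel primary cells. For both genes, as for Etv4, every cultured library lay above both fresh ones.

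The feedback genes did not move as a block. Dusp6, a cytoplasmic ERK phosphatase and the most abundant feedback gene per length in all 7 libraries, stood at 108 CPM in adipose neurospheres, 376 CPM in bowel M2 neurospheres, 388 CPM in bowel M1 neurospheres, 413 CPM in tdTomato-positive and 228 CPM in tdTomato-negative spheroid cells, 531 CPM in adipose primary cells and 166 CPM in bowel primary cells. It was called lower in adipose neurospheres than in adipose primary cells (log2 ratio -2.44, counting interval -2.48 to -2.40), in the same pair of libraries in which Etv4 was 5.21 log2 units higher. In bowel cells its log2 ratios over the shared primary library were 0.89 in M2 neurospheres, 0.77 in M1 neurospheres and 1.14 in tdTomato-positive spheroid cells, none of them called. Adipose neurospheres thus held the least Dusp6 of all 7 libraries and adipose primary cells the most.

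Etv5 stood at 46.1 CPM in adipose neurospheres, 138 CPM in bowel M2 neurospheres, 266 CPM in bowel M1 neurospheres, 49.6 CPM in tdTomato-positive and 233 CPM in tdTomato-negative spheroid cells, 15.2 CPM in adipose primary cells and 32.2 CPM in bowel primary cells. It was called higher in bowel M1 neurospheres over bowel primary cells (log2 ratio 2.58), whereas the log2 ratios of 1.45 in fat, 1.81 in bowel M2 neurospheres and 0.45 in tdTomato-positive spheroid cells were not called. Dusp5, the other nuclear ERK phosphatase, stood at 24.7 CPM in adipose neurospheres, 1.45 CPM in bowel M2 neurospheres, 4.38 CPM in bowel M1 neurospheres, 12.6 CPM in tdTomato-positive and 104 CPM in tdTomato-negative spheroid cells, 62.8 CPM in adipose primary cells and 8.81 CPM in bowel primary cells. It was called lower in bowel M2 neurospheres over bowel primary cells (log2 ratio -2.85) and ran opposite to Dusp4 there. An opposite-strand gene, AC137853.2, covers 22.1% of its merged exons, so part of its reads is uncertain.

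Among the Sprouty genes, Spry2 stood at 22.0 CPM in adipose neurospheres against 11.6 CPM in adipose primary cells, and at 26.8 CPM in M2 neurospheres, 23.5 CPM in M1 neurospheres and 47.7 CPM in tdTomato-positive spheroid cells against 2.25 CPM in bowel primary cells. All 3 bowel differences were called higher (log2 ratios 3.27, 2.90 and 4.21) and the adipose one was not (0.77). Spry4 stood at 16.9 CPM in adipose neurospheres against 12.5 CPM in adipose primary cells, and at 80.2 CPM in M2 neurospheres, 164 CPM in M1 neurospheres and 17.3 CPM in tdTomato-positive spheroid cells against 13.7 CPM in bowel primary cells. Both bowel neurosphere libraries were called higher (2.26 and 3.12), and neither tdTomato-positive spheroid cells (0.17) nor adipose neurospheres (0.29) were. Spry1 was not called in any of these 4 comparisons, with log2 ratios of -1.44 in fat and -0.49 to -0.28 in bowel cells (in M1 neurospheres -0.33, although its CPM was 71.6 against 65.5 in bowel primary cells), and 24.4% of its merged exons overlap the opposite-strand gene Gm42922.

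Spred1, which brings the Ras regulator neurofibromin to the membrane, stood at 24.0 CPM in adipose neurospheres against 77.6 CPM in adipose primary cells, and at 132 CPM in bowel M2 neurospheres, 53.2 CPM in M1 neurospheres and 53.3 CPM in tdTomato-positive spheroid cells against 30.8 CPM in bowel primary cells. None of these 4 differences was called, and the adipose one (log2 ratio -1.84) and the M2 one (1.81) ran in opposite directions. Spred2 stood at 25.0 CPM in adipose neurospheres against 4.64 CPM in adipose primary cells and was called higher there (2.28). In bowel cells its log2 ratios were -0.02 in M2 neurospheres, 0.89 in M1 neurospheres and 0.69 in tdTomato-positive spheroid cells.

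**Figure D4:**
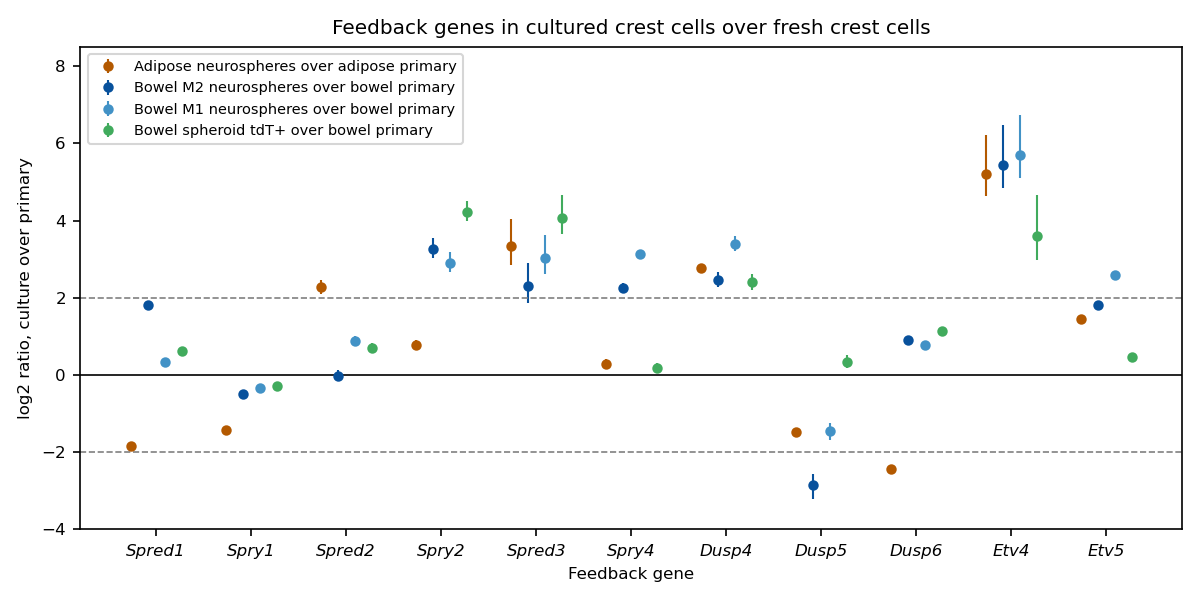
Log2 ratio of cultured over fresh crest-derived cells (vertical) for 11 feedback genes (horizontal) in 4 comparisons, of which the 3 bowel ones share the bowel primary library; bars are 95% counting intervals and dashed lines mark 4-fold. Etv4, Dusp4 and Spred3 lie above the upper line in all 4, and Dusp6 lies at -2.44 in fat but at 0.77 to 1.14 in bowel cells.

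Promoters of 3 feedback genes are shown because these genes differ in direction: Spred3 was called higher in all 4 cultures, Etv5 in bowel M1 neurospheres alone, and Dusp6 was called lower in fat. RefSeq promoter windows (250 bases before to 50 after a start, GRCm38.p6) were matched for 28 of the 39 genes, 36 windows in all, and Etv4 and Dusp4 were not among them. They were searched on both strands for TGAATGAA and TGAATGGA, forms of the site bound by Capicua, a repressor of Etv genes that ERK signalling relieves. They were also searched for CCGGAAGT, a site bound by ETS factors. Only these exact sequences were searched for, so other forms of the sites are not marked in the windows shown. TGAATGAA was found 10 bases before an annotated start of Spred3 (capitals) and in the window of Fgf21. TGAATGGA was found in the window of Fgf23 and CCGGAAGT in that of Fgfrl1. The Spred3 window lies inside the gene span, which runs from 29157783 to 29170070 on the minus strand. Of all 32851 windows, 1.3% hold TGAATGAA, 1.21% hold TGAATGGA and 3.89% hold CCGGAAGT, and no matches overlapped among the 39 genes. A match is a description of letters and not a bound site, and windows without one say nothing of the factor. The Spred3 window lies at chr7:29168598-29168897 (minus strand), the Dusp6 window at chr10:99262981-99263280 (plus strand), and the Etv5 windows of 2 annotated starts at chr16:22439521-22439820 and chr16:22438319-22438618 (minus strand).
Spred3: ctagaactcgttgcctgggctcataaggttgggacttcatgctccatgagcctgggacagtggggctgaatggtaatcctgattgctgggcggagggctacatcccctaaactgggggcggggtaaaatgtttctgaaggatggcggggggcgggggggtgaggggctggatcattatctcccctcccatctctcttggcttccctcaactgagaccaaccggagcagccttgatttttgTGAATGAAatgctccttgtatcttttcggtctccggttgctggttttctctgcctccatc
Dusp6: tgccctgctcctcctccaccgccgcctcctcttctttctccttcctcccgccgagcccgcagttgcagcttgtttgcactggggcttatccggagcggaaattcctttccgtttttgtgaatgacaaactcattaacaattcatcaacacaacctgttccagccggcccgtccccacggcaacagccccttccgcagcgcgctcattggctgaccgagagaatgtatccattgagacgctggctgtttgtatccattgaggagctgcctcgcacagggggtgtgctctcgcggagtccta
Etv5, first window: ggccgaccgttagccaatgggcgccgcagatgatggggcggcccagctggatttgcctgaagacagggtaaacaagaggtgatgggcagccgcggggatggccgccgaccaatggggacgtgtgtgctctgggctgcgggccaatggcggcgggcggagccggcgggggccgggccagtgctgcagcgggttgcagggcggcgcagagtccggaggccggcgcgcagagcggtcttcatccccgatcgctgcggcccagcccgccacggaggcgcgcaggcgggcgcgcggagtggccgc
Etv5, second window: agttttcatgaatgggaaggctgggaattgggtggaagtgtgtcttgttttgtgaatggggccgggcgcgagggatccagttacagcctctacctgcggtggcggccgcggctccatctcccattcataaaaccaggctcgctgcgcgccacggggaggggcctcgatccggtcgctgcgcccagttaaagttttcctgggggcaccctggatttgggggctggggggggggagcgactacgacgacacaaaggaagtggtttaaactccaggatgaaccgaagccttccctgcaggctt

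Counted over all members, the 4 comparisons of cultured with fresh crest cells gave the following. In adipose neurospheres over adipose primary cells, 25 of the 39 genes were measured, and 6 were called higher and 9 lower. Of all 14773 genes measured there, 26.5% were called, 5.72% higher and 20.8% lower, and the median log2 ratio was -0.34 over the measured members against -0.01 over all genes. The lower ones were mainly ligands (4 of 8 measured) and receptors (3 of 5), and of the 11 feedback genes measured 4 were higher and 1 lower.

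In bowel M2 neurospheres over bowel primary cells, 27 were measured, with 8 called higher and 8 lower. Over all 15189 genes measured 26.9% were called, 5.89% higher and 21% lower, and the median log2 ratio was 0.79 over the members against -0.07. In bowel M1 neurospheres over bowel primary cells, 25 were measured, with 7 called higher and 6 lower, against 22.9% of 15422 genes, 6.59% higher and 16.4% lower, and medians of 0.77 and -0.07. This balance depended on the scaling, since by total reads 9 were higher and 5 lower. In tdTomato-positive spheroid cells over bowel primary cells, 27 were measured, with 8 called higher and 10 lower, against 27% of 15232 genes, 6.57% higher and 20.4% lower, and medians of 0.45 and -0.03. Of the 11 feedback genes, 5 were called higher in M2 neurospheres, 6 in M1 neurospheres and 4 in tdTomato-positive spheroid cells. Of the 3 intracellular FGF genes measured, 3, 2 and 3 were called lower in the same order, and none higher.

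The sort of mixed bowel spheroids set crest-derived cells against the other cells of the same 10-day spheroids. Of 23 genes measured, tdTomato-positive cells were higher in 2, Fgf5 (log2 ratio 6.12, counting interval 5.55 to 7.17) and Fgf13 (5.29, 4.59 to 6.80). They were lower in 11: the ligands Fgf10 (-5.82), Fgf7 (-4.73), Fgf1 (-4.70), Fgf23 (-4.50) and Fgf2 (-2.07), the receptors Fgfr2 (-6.42) and Fgfr3 (-4.84), and the feedback genes Etv4 (-3.68), Spry4 (-3.35), Dusp5 (-3.29) and Etv5 (-2.47). Of all 13951 genes measured 19.1% were called, 6.64% higher and 12.5% lower, and the median log2 ratio was -1.57 over the members against 0.01. The call of Fgf2 was lost under scaling by total reads (-1.83).

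Differences of less than 2-fold were found for 7 genes: Dusp6, Spry1, Spry2, Spred1, Spred2, Spred3 and Fgfrl1. Dusp6 stood at 413 CPM in tdTomato-positive and 228 CPM in tdTomato-negative cells, the opposite order to Etv4 with 3.70 and 40.5 CPM. All 8 fibroblast and matrix markers were lower in tdTomato-positive cells, as were all 3 measured markers of interstitial cells of Cajal (4 markers sum to 34.3 CPM in tdTomato-positive and 4018 CPM in tdTomato-negative cells, Hcn4 having 0 reads in the positive ones). Their part in the differences was not tested.

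**Figure D5:**
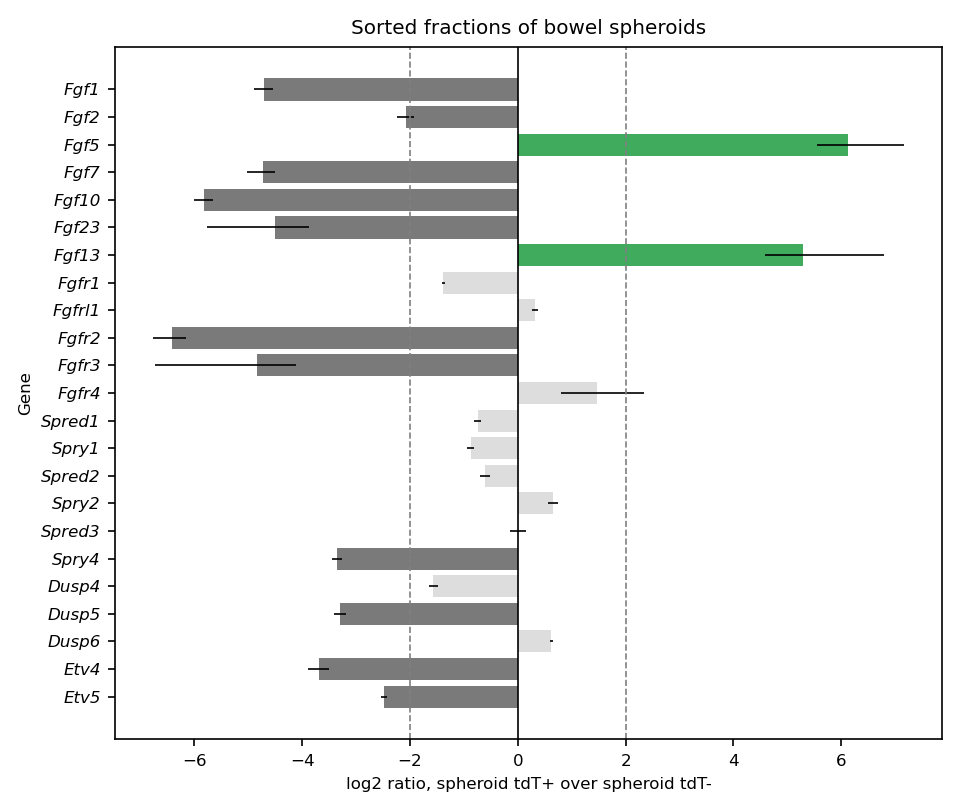
Log2 ratio of tdTomato-positive over tdTomato-negative bowel spheroid cells (horizontal) for the 23 genes measured (vertical), with 95% counting intervals as thin lines and dashed lines at 4-fold; green bars were called higher, dark grey bars lower and light grey bars neither. Fgf5 and Fgf13 lie to the right at 6.12 and 5.29, and 11 genes lie to the left of -2.

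The bowel culture methods were compared in M2 over M1 neurospheres, where 4 of 22 genes measured were called, with Fgf10 (log2 ratio 4.67, counting interval 3.83 to 7.70, 3 reads in M1) and Fgf5 (3.81, 3.55 to 4.14) called higher and Fgfr4 (-2.62) and Fgf1 (-2.41) called lower. The called share was 18.2% of the members against 8.55% of all 14141 genes measured, 1.2% higher and 7.35% lower, and a 2-fold rule gave 10 members in place of 4. The medians were -0.49 over the members and -0.08 over all genes. None of the 11 feedback genes was called, their log2 ratios lying between -1.39 (Dusp5) and 1.48 (Spred1). M1 neurospheres also held more macrophage transcripts (7 markers, 57.7 CPM in M2 and 1346 CPM in M1) and more mesothelial ones (0.291 CPM in M2 and 78.7 CPM in M1). Of the 8 fibroblast and matrix markers 6 were also lower in M2 neurospheres (sum 751 CPM in M2 and 1892 CPM in M1), as were 4 of 8 smooth muscle markers and all 3 measured markers of interstitial cells of Cajal, whereas Fgf10 was higher there. Their part in these differences was not tested.

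The further 10 days after sorting set M2 neurospheres against the tdTomato-positive spheroid cells. Of 22 genes measured, Fgfr3 (log2 ratio 5.18, counting interval 4.47 to 7.07), Fgfr4 (2.25), Fgf1 (2.20) and Spry4 (2.10) were called higher and Dusp5 (-3.19) lower. Of all 13432 genes measured 6.92% were called, 3.07% higher and 3.84% lower, with medians of -0.07 over the members and -0.02 over all genes. Fgf5 was nearly level, at 25.1 CPM in M2 neurospheres and 20.1 CPM in tdTomato-positive spheroid cells (log2 ratio 0.20, counting interval 0.10 to 0.31), and Dusp4 was too (0.07, -0.03 to 0.17). A 2-fold rule gave 11 members in place of 5. Of the 8 fibroblast and matrix markers 6 were lower in M2 neurospheres (sum 751 CPM against 4808 CPM in tdTomato-positive spheroid cells), as were 2 of the 3 measured markers of interstitial cells of Cajal (2.16 against 34.3 CPM), and 3 of 8 neuronal markers were higher (1113 against 725 CPM). Their part in the differences was not tested.

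The tissues were compared first in fresh cells. In adipose over bowel primary cells, 25 genes were measured, with Fgf10 (log2 ratio 6.32), Fgf7 (3.05), Dusp5 (2.81) and Spry2 (2.33) called higher. The 8 called lower were the ligands Fgf16 (-4.46), Fgf1 (-2.86), Fgf5 (-2.65) and Fgf9 (-2.11), the intracellular genes Fgf12 (-5.06), Fgf13 (-3.33) and Fgf14 (0 reads, at least 61.5-fold lower), and Fgfr2 (-4.11). Of all 15585 genes measured 18.5% were called, 7.1% higher and 11.4% lower, with medians of -0.60 over the members and 0.09 over all genes. All 8 neuronal, 8 smooth muscle, 6 mesothelial and 8 acinar markers were lower in adipose primary cells, and 3 of 8 fibroblast markers and all 8 lymphocyte and dendritic markers were higher. Their part in the differences was not tested.

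The 2-stage neurospheres of the 2 tissues differed in 12 of 23 genes measured. Adipose over bowel M2 neurospheres were called higher in Fgf5 (log2 ratio 5.16), Fgf3 and Dusp5 (4.17, counting interval 3.90 to 4.52). They were called lower in Fgf13 (-6.08), Fgfr3 (-4.54), Fgf1 (-4.04), Fgf10 (-3.96), Fgfr4 (-3.87), Spred1 (-2.34), Spry4 (-2.12), Fgfrl1 (-2.06) and Fgfr2 (-2.02). Of all 13440 genes measured 14% were called, 5.33% higher and 8.69% lower, and the median log2 ratio was -1.56 over the members against -0.01. All 4 calls among the 5 receptors were thus lower in adipose neurospheres, and Fgfr1 was too without being called (37.1 against 119 CPM, log2 ratio -1.56). Which receptors were called depended on the bowel library. Against tdTomato-positive spheroid cells 6 members were called in place of 12, among them Fgfrl1 (-2.59) and Fgfr1 (-2.20), while Fgfr2 (-1.59) and Fgfr4 (-1.61) were within 4-fold and Fgfr3 was below 1 CPM in both libraries (0.162 against 0.0929 CPM). Against M1 neurospheres 12 members were called, among them Fgfr1 to Fgfr4, and Fgfrl1 was not (-1.66). Fgf5 and Fgf10 changed places between the tissues on culture: Fgf5 was lower and Fgf10 higher in fresh adipose than in fresh bowel cells, and the reverse held between adipose and bowel M2 neurospheres. Against M1 neurospheres the reversal of Fgf10 did not hold, with 0.0974 CPM (6 reads) in adipose and 0.0578 CPM (3 reads) in M1 neurospheres.

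Other genes of the pathway were counted from 4 lists. The 27 receptor adaptors and ERK cascade genes were measured in all 9 comparisons and few passed the 4-fold rule: 0 were called in adipose neurospheres over adipose primary cells, 1 was called higher and 1 lower in bowel M2 neurospheres, 1 higher in bowel M1 neurospheres (Plcg1, phospholipase C gamma, log2 ratio 2.86) and 3 higher in tdTomato-positive spheroid cells over bowel primary cells (Nf1, Gab2 and Frs2). In the other 5 comparisons at most 1 was called, Gab1 in the sort (2.75) and Rps6ka1 in adipose over bowel M2 neurospheres (2.08). The called share of this list was 0% to 11.1% over the 9 comparisons, and in each it was below that of all genes measured there. The median log2 ratio of the list was above that of all genes on culture. It was 0.68 in fat and 0.70, 0.45 and 0.43 in bowel M2 neurospheres, M1 neurospheres and tdTomato-positive spheroid cells over primary cells. Over all genes measured it was -0.01, -0.07, -0.07 and -0.03 in that order. In the other 5 comparisons the list median ran between -0.05 and 0.03, against -0.08 to 0.09 over all genes measured.

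Heparan sulfate enzymes, which shape the co-receptor of FGF, held both higher and lower genes on culture. Hs6st2, a 6-O-sulfotransferase, stood at 54.5 CPM in bowel M2 neurospheres, 21.0 CPM in M1 neurospheres and 31.6 CPM in tdTomato-positive spheroid cells against 0.485 CPM in bowel primary cells, and at 0.162 CPM in adipose neurospheres. Its log2 ratios over bowel primary cells were 6.44, 4.89 and 5.77 in that order, and -8.01 in adipose over bowel M2 neurospheres. Heparanase, Hpse, which cleaves the chains, stood at 0.292 CPM in adipose neurospheres against 22.6 CPM in adipose primary cells (log2 ratio -6.27) and at 0.186 CPM in tdTomato-positive against 16.9 CPM in tdTomato-negative spheroid cells (-6.51). Of 15 listed enzymes, 3 were called higher and 2 lower in bowel M2 neurospheres (14 measured), 3 and 1 in M1 neurospheres, 5 and 2 in tdTomato-positive spheroid cells, and 2 and 3 in adipose neurospheres over their primary cells. The called shares of the list were 35.7%, 26.7%, 46.7% and 33.3% in that order, against 26.9%, 22.9%, 27% and 26.5% of all genes. In the sort 0 were higher and 4 lower (26.7% against 19.1% of all genes). In M2 over M1 neurospheres 1 was higher (Hs6st1, 3.14) and 1 lower, in M2 neurospheres over tdTomato-positive spheroid cells 2 and 1, in adipose over bowel primary cells 4 and 1, and in adipose over bowel M2 neurospheres 1 and 3. In these 4 comparisons the list's share was 13.3%, 21.4%, 33.3% and 28.6% in order, against 8.55%, 6.92%, 18.5% and 14% of all genes. The median log2 ratio of the list ran between -0.64 (the sort) and 0.95 (bowel M2 neurospheres over bowel primary cells), against -0.08 to 0.09 over all genes measured.

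Of 20 listed co-receptors and partners 19 were found. Gpc1, a heparan sulfate carrier at the cell surface, was higher in all 4 cultures over fresh cells, with log2 ratios of 2.74 in fat and 3.54, 2.53 and 3.70 in bowel M2 neurospheres, M1 neurospheres and tdTomato-positive spheroid cells. Gpc3 stood at 0.162 CPM in adipose neurospheres against 218 CPM in bowel M2 neurospheres (log2 ratio -10.00) and 70.2 CPM in adipose primary cells (-8.64). The list gave 4 higher and 3 lower of 16 measured in adipose neurospheres over primary cells, 1 and 2 of 17 in bowel M2 neurospheres, 3 and 2 of 17 in M1 neurospheres and 5 and 3 of 17 in tdTomato-positive spheroid cells. The called share was 17.6% in bowel M2 neurospheres, below the 26.9% of all genes there, and 43.8%, 29.4% and 47.1% in the fat, M1 and tdTomato-positive comparisons, above the 26.5%, 22.9% and 27% of all genes. In the sort 4 were higher, led by L1cam (7.25), Flrt3 (4.83) and Cdh2 (4.01), and 2 lower, led by Flrt2 (-5.68), which is 37.5% of 16 against 19.1% of all genes. In the other 4 comparisons 0 to 2 were higher and 0 to 1 lower. The share was 6.67% in M2 over M1 neurospheres, 6.67% in M2 neurospheres over tdTomato-positive spheroid cells and 5.88% in adipose over bowel primary cells, below the 8.55%, 6.92% and 18.5% of all genes. It was 18.8% in adipose over bowel M2 neurospheres, above the 14% of all genes. The median log2 ratio of the list ran between -0.29 and 0.93 over all 9 comparisons, against -0.08 to 0.09 over all genes measured.

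The other genes that ERK induces were called in both directions, and the share called higher and the share called lower were both above those of all genes in fat, in bowel M1 and in bowel M2 neurospheres over their primary cells. In adipose neurospheres over adipose primary cells 4 of 23 were higher (17.4%, against 5.72% of all genes) and 8 lower (34.8%, against 20.8%). The largest log2 ratio was that of the cytokine gene Il11, higher at 24.5 against 0.0469 CPM (3 reads; 8.18, counting interval 7.33 to 11.16). The other 3 higher ones, named after their values were seen, were Lif, also a cytokine gene (82.2 against 3.78 CPM, 4.28), Fosl1, an AP-1 transcription factor gene (3.51), and Ccnd1, which encodes cyclin D1 (2.58). The lower ones included the immediate early genes Egr1 at 42.8 against 4698 CPM (log2 ratio -6.92) and Fos at 133 against 8868 CPM (-6.21), and the phosphatase genes Dusp2 (-8.04) and Dusp1 (-6.72). In bowel M1 neurospheres 4 of 18 were higher (22.2%, against 6.59% of all genes) and 5 lower (27.8%, against 16.4%), with Dusp2 (-5.43), Fos (-4.73), Dusp1 (-4.47) and Egr1 (-3.78) lower and Shisa2 higher (3.06). In bowel M2 neurospheres 3 of 20 were higher (15%, against 5.89%) and 6 lower (30%, against 21%), with Dusp2 (-6.21), Dusp1 (-3.36), Egr2 (-3.35) and Egr1 (-3.14) lower and Shisa2 higher (2.63). In tdTomato-positive spheroid cells over bowel primary cells 7 of 22 were higher (31.8%, against 6.57%) and 2 lower (9.09%, against 20.4%), with Il11 (4.87), Ier3 (2.34) and Phlda1 (2.21) higher and Dusp2 (-4.33) and Etv1 (-2.43) lower. Over all 9 comparisons the median log2 ratio of the list ran between -1.60 (M2 neurospheres over tdTomato-positive spheroid cells) and 1.5 (adipose over bowel primary cells), against -0.08 to 0.09 over all genes measured.

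In the remaining comparisons the same list gave 1 higher and 5 lower of 23 in the sort, where Il11 (-4.27) and Lif (-3.58) were lower and Ccnd1 was higher (5.29). It gave 2 higher and 0 lower of 20 in M2 over M1 neurospheres, 1 and 8 of 21 in M2 neurospheres over tdTomato-positive spheroid cells, 9 and 0 of 21 in adipose over bowel primary cells, and 7 and 4 of 22 in adipose over bowel M2 neurospheres, led by Lif (5.05) and Il11 (4.53). The called shares were 26.1%, 10%, 42.9%, 42.9% and 50% of the list in these 5 comparisons, against 19.1%, 8.55%, 6.92%, 18.5% and 14% of all genes. Lif stood at 82.2 CPM in adipose neurospheres against 2.66 CPM in bowel M2 neurospheres. Etv1, the third gene of the Etv4 and Etv5 subfamily, was lower in adipose neurospheres (12.4 CPM) than in bowel M2 neurospheres (198 CPM, log2 ratio -3.88).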

How the data were processed

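RNA sequencing of 7 libraries, 1 per group, was analysed. The deposited values are CPM for each Entrez gene, read counts that the authors divided by the library total, with no length correction. The submitters' processing notes name the mm10 genome, featureCounts, HISAT and bcl2fastq 2.17; other versions, the settings, the annotation and strand use are not given in these sources. All values were whole multiples of 1 read within 0.05 read (100% of values in each library), so whole reads were recovered; with 1 library per group no count test, p-value or standard error was possible. Libraries held 51885106 to 65301500 reads. Near-identical or overlapping genes can share reads.

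Symbols were matched by Entrez identifier for 25275 of 27179 rows; the 1904 others held 0.222% to 0.351% of reads. Members are all genes of the symbol rule, and those at 1 CPM or more in a library are named with their values. Of the companion lists, up to 5 called genes per comparison at 10 CPM or more in the higher library are named; Etv1 in the sentence on its subfamily is one of these. The members, the companion and marker lists and the comparisons were chosen with earlier results of these data known. TMM factors (edgeR 4.0.16, R 4.3.3) used all 7 libraries and the 16461 genes at 1 CPM in a library. Log2 ratios used a prior count of 2, which understates ratios of low genes, and 95% exact conditional binomial intervals. Ratios against 0 reads are bounds from a floor of 3 reads per library. Exon lengths are merged GENCODE M21 exons of GRCm38, which can understate long genes per length; promoter windows are RefSeq (GRCm38.p6). The ratio, the interval and the calling rule were tested on simulated reads that held counting error only. Read recovery and scaling were not part of that test. Alternatives were scaling by total reads or DESeq2 1.42.0 size factors, no filter or 5 CPM, a prior count of 0.5, a 2-fold rule, other bowel libraries in the neurosphere tissue comparison and, chosen after seeing the data, leaving out 8 acinar genes. Tables and figures were made in Python 3.11.15 with scipy 1.17.1, pandas 2.3.3, matplotlib 3.10.9 and numpy 2.4.6.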

Additional observations from a re-analysis of the deposited data

Results flagged for a closer look

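Fgf10 stood out because its differences between 2-stage neurospheres and fresh cells ran in opposite directions in the 2 tissues. The log2 ratio was -6.52 in adipose neurospheres over adipose primary cells (0.0974 CPM from 6 reads, against 10.7 CPM) and 3.77 in bowel M2 neurospheres over bowel primary cells (2.17 CPM, against 0.104 CPM from 6 reads). With 1 library per group the difference between the tissues was not tested. Bowel M1 neurospheres, which were sorted before culture, held 0.0578 CPM (3 reads), and the tdTomato-negative cells of mixed bowel spheroids held 203 CPM.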

How the results depend on the processing

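No paired analysis was possible because each group held 1 library, and for the same reason no replicate could be left out. Of the 108 member ratios called over the 9 comparisons, 0 changed sign under either other scaling or the smaller prior count. DESeq2 size factors and a prior count of 0.5 lost 0 calls, and scaling by total reads lost 2, Fgf14 in bowel M1 neurospheres over bowel primary cells and Fgf2 in the spheroid sort. Scaling by total reads shifted the median log2 ratio of all genes by 0.459 in bowel M1 neurospheres over bowel primary cells and by 0.0191 to 0.285 in size in the other 8 comparisons. The number of members called moved by over 1.5 times in 5 cases. A filter at 5 CPM left 10 of 16 calls in bowel M2 neurospheres over bowel primary cells. A rule of 2-fold gave 10 calls, not 4, in M2 over M1 neurospheres, 11, not 5, in M2 neurospheres over tdTomato-positive spheroid cells, and 19, not 12, in adipose over bowel primary cells. Set against tdTomato-positive spheroid cells in place of M2 neurospheres, adipose neurospheres differed in 6 genes, not 12, and set against M1 neurospheres in 12. Leaving out the 8 acinar genes, chosen after seeing the data, lost 0 of 59 calls in the 4 comparisons with bowel primary cells. Fgf3, Fgf16, Fgf23 and other members with a few reads in a library are limited by depth, and their ratios there rest on wide counting intervals or on the floor.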
